A study of Capra hircus with 6 samples.

Results

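The genes described here encode the heat shock proteins of the cytosol and mitochondria, their J-domain and BAG co-chaperones, and the heat shock factors that control many of them. Members were chosen by symbol, whatever their level, with earlier results of these data known. They take in each HSP70, HSP110, HSP90, chaperonin, small heat shock, DNAJA, DNAJB, DNAJC, BAG and HSF gene of the deposited tables. A set of chaperones known to work in the endoplasmic reticulum was left out, as was HSPG2, the proteoglycan perlecan. This gave 66 members among 16262 gene symbols: 3 HSF, 2 HSP90, 11 HSP70 or HSP110, 2 chaperonin, 7 small heat shock (HSPB), 4 DNAJA, 8 DNAJB, 23 DNAJC and 6 BAG genes. HSP70.1 is the goat symbol of the inducible HSP70, with hspA1A as a RefSeq synonym.

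RNA was sequenced from adipose-derived mesenchymal stem cells of the goat (Capra hircus), stromal cells that can become fat cells. The 3 control libraries carry the genotype WT. The other 3 come from a cell line made to overexpress TAZ, the Hippo pathway coactivator encoded by WWTR1, and the question was its effect on adipogenesis. All 6 carry the treatment adipogenic differentiation. No donor, clone number or promoter is named, so the replicates may be technical, and the p-values then reflect no more than the scatter among these libraries. TNF-α appears in the series title and in no sample label.

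Heat shock proteins keep other proteins folded. HSP70 grips exposed hydrophobic stretches in a cycle driven by ATP, J-domain (DNAJ) proteins bring the substrate and trigger hydrolysis, and exchange factors such as HSP110 and several BAG proteins reset the cycle. HSP90 finishes the folding of kinases and receptors, small heat shock proteins hold unfolded chains without ATP, and HSPD1 with HSPE1 forms the folding chamber of mitochondria. Under proteotoxic stress HSF1 induces a subset of these genes, while others such as HSPA8 are constitutive.

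Levels are FPKM, fragments scaled by gene length and library size, from libraries of 16935698 to 18852822 fragments. WWTR1 was at 32.0 ± 3.38 against 95.7 ± 19.5 FPKM (control against TAZ, mean ± SD, n = 3 each, as throughout), in keeping with the labels. All 13 stromal markers passed the filter, with sums of 24378 to 26593 FPKM. Of 10 adipocyte markers 4 passed, and PPARG, ADIPOQ, PLIN1 and LPL stayed at or near 0. Those that passed were CIDEC, PNPLA2, LIPE and CEBPA. CIDEC (18.3 ± 1.31 against 17.8 ± 1.29 FPKM) and PNPLA2 (12.5 ± 0.676 against 12.5 ± 0.442 FPKM) overlapped. LIPE was higher and CEBPA lower in every TAZ library (limma adjusted p = 0.000168 and 0.000439). The leukocyte marker PTPRC was listed at 0 in every library. Yet the 8 measured leukocyte markers summed to 13.7 to 16.8 FPKM in control and 27.1 to 28.0 FPKM in TAZ libraries, mostly through CD14. CD14 was higher in every TAZ library (9.58 ± 1.38 against 24.2 ± 0.421 FPKM). CD68, the other leukocyte marker past the filter, was lower in every TAZ library (4.53 ± 0.437 against 2.86 ± 0.333 FPKM). The 9 measured interferon response genes all rose, from sums of 60.0 to 66.05 to sums of 3170 to 3397 FPKM, and their part in the results below was not tested.

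A minority of the chaperone genes moved. HSPB8, DNAJA1, DNAJC13, DNAJB14, DNAJB4, HSPA8 and DNAJC15 rose with TAZ, and HSPB7, DNAJC22, HSPB6, DNAJC11, DNAJC19, DNAJC7 and BAG2 fell. HSPB8, DNAJA1, DNAJB4 and the largely constitutive HSPA8 stand in the list of heat-inducible HSF1 targets used here. Other genes known to be induced by heat, HSP70.1, DNAJB1, HSPH1, HSPB1 and BAG3, did not pass the test. Nor did HSF1, HSF2, the HSP90 genes or the mitochondrial chaperonin. HSPA6, also in that list, lay below the filter at 0.115 ± 0.0382 against 0.364 ± 0.0199 FPKM. With no filter set HSPA6 was called higher (limma adjusted p = 0.000822). Genes with at least 1 FPKM in 3 or more libraries were tested with limma, and a change was called at an adjusted p under 0.05 over all 10750 such genes. Log2 fold changes are TAZ minus control of log2(FPKM + 1), a scale that compresses the changes of low genes.

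Of 66 members 55 were tested, and 11 lay below the filter. Among those tested, 7 rose (12.7%, against 15.7% of all genes) and 7 fell (12.7%, against 22.1%), so 25.5% changed where 37.9% of all genes did. Control and TAZ values did not overlap for 21 members (38.2%, against 48.4%), 7 higher and 14 lower with TAZ. Both counts of lower members include DNAJC22, which passed the filter through the control libraries alone, so its groups could not overlap. The median log2 fold change was -0.043 for members and -0.05 for all genes, and its median size without sign was 0.148 and 0.205. On this scale 5 members changed at least 1.5-fold, among them DNAJC22, for which the filter built in a difference. All genes were not counted at 1.5-fold, so whether this is few or many was not tested. Of the 41 that did not pass, 40 had a 95% interval inside 1.5-fold either way, HSPB11 being the exception. Scaling by median ratios gave 7 members higher and 6 lower, against 18.7% and 16.8% of all genes.

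**Figure D1:**
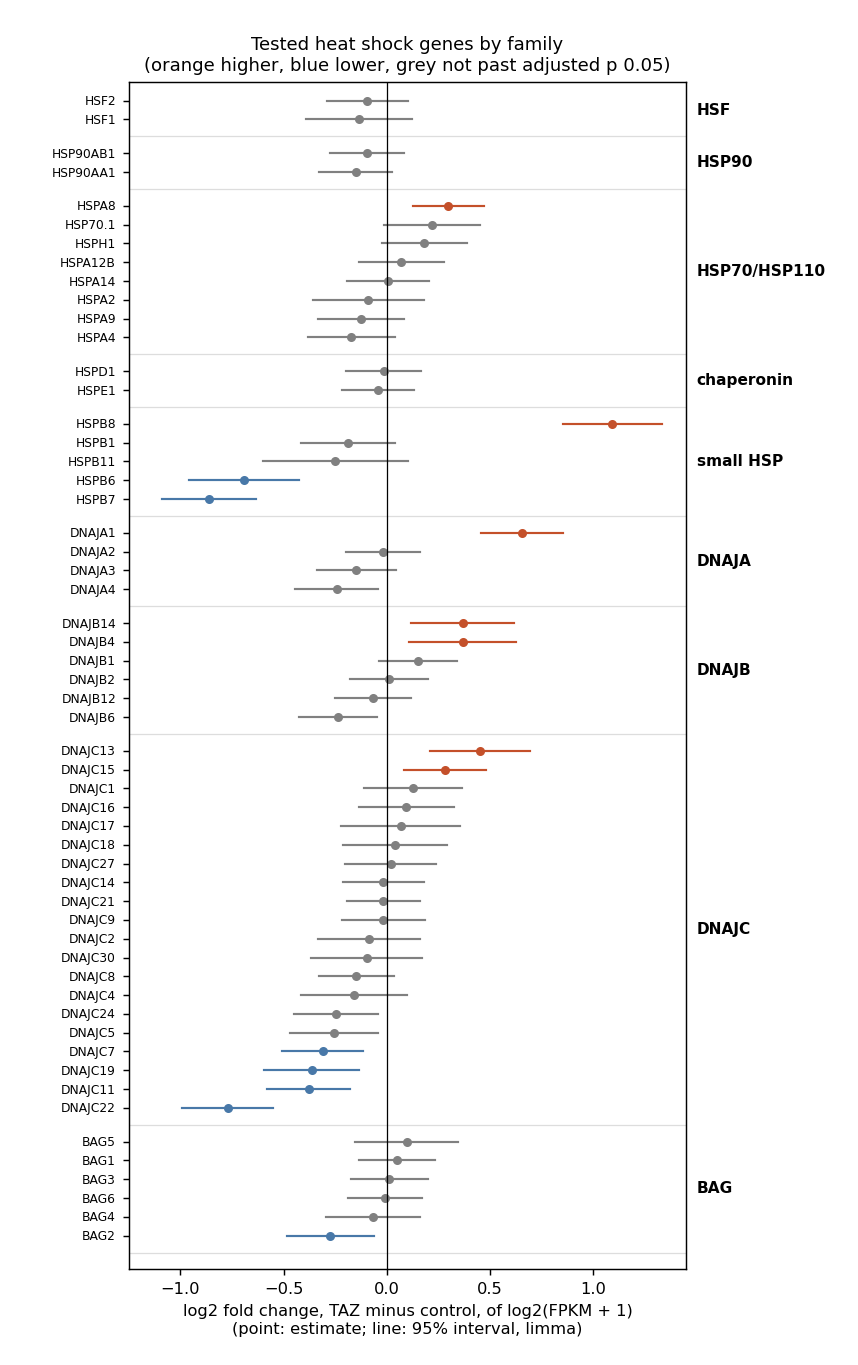
Log2 fold change of log2(FPKM + 1), TAZ minus control, of the 55 tested members by family, with 95% limma intervals as lines. Most intervals cross 0, and HSPB8 (1.09) and HSPB7 (-0.86) mark the ends.

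The members' summed levels overlapped between groups, at 2516 to 2567 FPKM in control and 2496 to 2620 FPKM in TAZ libraries. HSPA8, HSP90AB1, HSP90AA1 and HSPB1 supplied 58.4% ± 0.658 of it in control and 59.2% ± 0.942 in TAZ libraries. Single families differed inside this total. Every TAZ library exceeded every control for the HSP70 and HSP110 sum (769 to 815 against 654 to 702 FPKM), the DNAJA sum (141 to 150 against 113 to 123 FPKM) and the DNAJB sum (75.6 to 78.2 against 72.9 to 73.5 FPKM). The DNAJC sum was lower in every TAZ library (282 to 295 against 306 to 315 FPKM), and the other sums overlapped, HSP90 by a margin of less than 1 FPKM. Such sums follow their most abundant genes and carry no test.

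**Figure D2:**
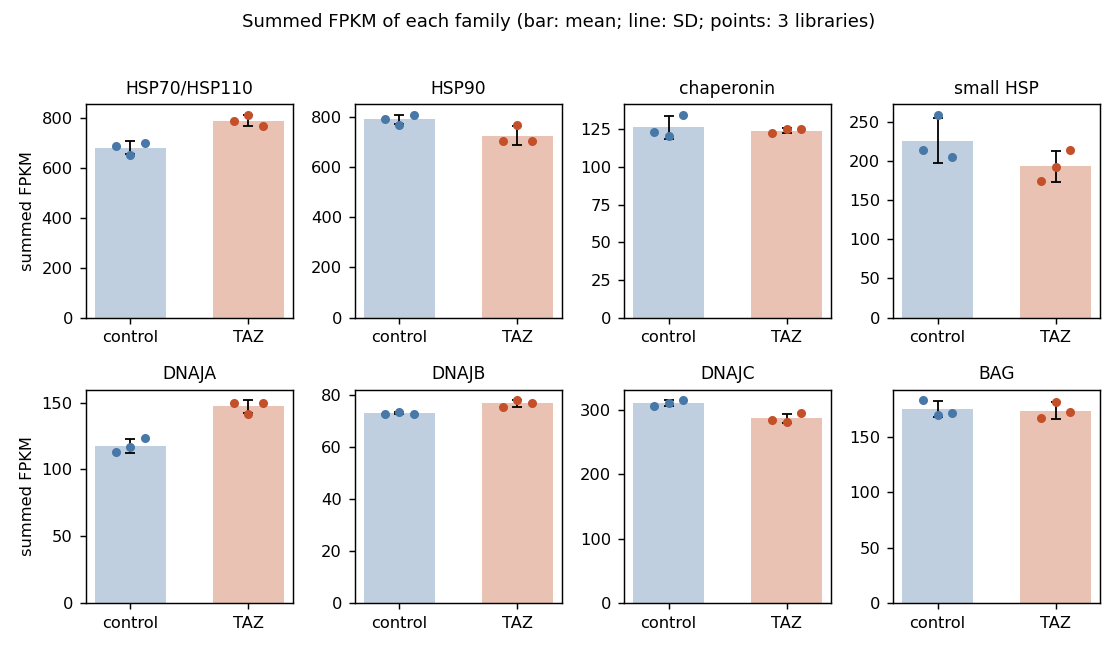
Summed FPKM of each family except HSF by group, with the mean as a bar, the SD as a line and the 3 libraries as points. TAZ libraries lie above control for HSP70/HSP110, DNAJA and DNAJB and below it for DNAJC.

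HSF1, the main activator of the heat shock response, was at 29.6, 31.2 and 24.3 FPKM in control libraries 1, 2 and 3. TAZ libraries 1, 2 and 3 gave 21.8, 26.6 and 29.1 FPKM, inside and around the control range, and the difference did not pass (log2 fold change -0.13, 95% interval -0.39 to 0.12, limma adjusted p = 0.402). HSF2 was at 8.44 ± 0.331 against 7.85 ± 0.323 FPKM (adjusted p = 0.442). HSF4, known from the lens, lay below the filter at 0.524 ± 0.0812 against 0.682 ± 0.0643 FPKM, without overlap and not called when no filter was set (adjusted p = 0.09).

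HSPA8, the constitutive cytosolic HSP70 and the most abundant member, rose. Control libraries held 526, 479.9 and 508 FPKM and TAZ libraries 613, 642 and 604 FPKM, so the groups stood apart (log2 fold change 0.30, SE 0.0793, adjusted p by limma = 0.0103). With the replicate number as a block the estimate was unchanged, the SE was 0.124 and the call was lost (limma adjusted p = 0.0509). Those numbers do not pair the libraries, as described at the end, and every other alternative kept the call. HSPA8 made up 74.0% ± 2.0 of the family's FPKM in control and 78.4% ± 0.517 in TAZ libraries.

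HSP70.1, the heat-inducible form, was at 11.7, 14.3 and 11.2 FPKM in control and 13.1, 15.6 and 14.9 FPKM in TAZ libraries, with overlap (log2 fold change 0.22, 95% interval -0.02 to 0.45, limma adjusted p = 0.132). It passed as higher without control replicate 2, its highest control (adjusted p = 0.0436). Its RefSeq model overlaps LOC102177850, with HSPA1L as a synonym, at 1.57 ± 0.172 against 1.32 ± 0.073 FPKM. Closely similar HSP70 copies can share reads, and the sources used here do not say how such reads were assigned, so the HSP70 values are uncertain to that extent.

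HSPA6, in humans a strictly stress-induced HSP70, was close to the detection limit. It was at 0.156, 0.0806 and 0.109 FPKM in control (17.5 fragments) and 0.371, 0.3803 and 0.342 FPKM in TAZ libraries (58 fragments), without overlap. It lay below the filter, and with none set it was called higher (log2 fold change 0.29, limma adjusted p = 0.000822). HSPH1, the HSP110 exchange factor, was at 19.8 ± 2.03 against 22.6 ± 1.04 FPKM (adjusted p = 0.15), and its relative HSPA4 at 33.5 ± 4.18 against 29.5 ± 0.982 FPKM, without overlap (adjusted p = 0.183).

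The remaining family members stayed near control. HSPA9, the mitochondrial HSP70, was at 90.4 ± 10.7 against 82.5 ± 5.05 FPKM (limma adjusted p = 0.331). HSPA14, a ribosome-associated HSP70, was at 12.3 ± 0.746 against 12.3 ± 0.721 FPKM, HSPA12B at 5.18 ± 0.332 against 5.48 ± 0.265 FPKM and HSPA2, abundant in testis, at 3.75 ± 0.771 against 3.44 ± 0.384 FPKM. HSPA4L and HSPA12A were below the filter, at no more than 0.167 and 0.0276 FPKM.

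Neither cytosolic HSP90 gene passed. HSP90AA1, the stress-responsive form, was at 381, 360.0 and 411 FPKM in control and 347, 357 and 331 FPKM in TAZ libraries. All TAZ values were the lower ones, by a margin within the test's error (log2 fold change -0.15, 95% interval -0.33 to 0.03, limma adjusted p = 0.168). HSP90AB1, the constitutive form, overlapped at 406 ± 8.26 against 380.5 ± 28.7 FPKM (adjusted p = 0.384).

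The mitochondrial chaperonin differed little. HSPD1, the HSP60 ring, was at 87.6 ± 7.50 against 86.5 ± 1.08 FPKM (log2 fold change -0.02, 95% interval -0.20 to 0.17), and HSPE1, its HSP10 lid, at 38.7 ± 0.689 against 37.6 ± 1.43 FPKM (log2 fold change -0.04, 95% interval -0.21 to 0.13). Their RefSeq models overlap, and the length recovered for HSPE1, 3637 bases, exceeds the 2567 bases of HSPD1, so the level of HSPE1 per length is uncertain.

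Small heat shock proteins held the largest changes of the tested members in both directions on the log2(FPKM + 1) scale. HSPB8, which works with BAG3 in the selective autophagy of damaged proteins, was at 2.54, 3.24 and 2.23 FPKM in control and 6.78, 6.68 and 6.85 FPKM in TAZ libraries. The TAZ values were nearly alike and far above every control (ratio of means 2.54, log2 fold change 1.09, SE 0.111, adjusted p by limma = 5.56e-06). HSPB8 was the 1 tested member that changed at least 2-fold on that scale.

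HSPB7, a small heat shock protein of heart and skeletal muscle, went from 2.99, 3.42 and 3.37 to 1.28, 1.15 and 1.62 FPKM (log2 fold change -0.86, SE 0.105, adjusted p by limma = 2.98e-05). HSPB6, or HSP20, abundant in muscle, went from 24.4, 30.9 and 24.0 to 15.5, 13.8 and 18.8 FPKM (log2 fold change -0.69, SE 0.123, adjusted p = 0.000707). Both fell with every TAZ value under every control.

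Muscle markers were looked at beside HSPB6 and HSPB7, and they moved in both directions. The 10 smooth muscle and pericyte markers summed to 1333 to 1805 FPKM in control and 810 to 962 FPKM in TAZ libraries, mostly through ACTA2 and TAGLN. Of the 6 tested, ACTA2, TAGLN and SMTN fell and CNN1 and NOTCH3 rose (83.3% changed, against 37.9% of all genes). CSPG4 did not pass, at 25.7 ± 4.56 against 25.6 ± 5.58 FPKM, and MYH11, DES, RGS5 and MCAM lay below the filter. The 10 measured skeletal muscle markers, none above the filter, summed to 1.37 to 1.98 against 0.62 to 0.66 FPKM. These low sums came mostly from TNNT3 and DES, and DES stands in both marker lists. The part of muscle cells in the HSPB values was not tested. In bulk RNA, fewer cells of a type and less RNA per cell cannot be told apart.

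HSPB1, or HSP27, which binds actin, was the most abundant of the family at 189 ± 23.9 against 165 ± 17.9 FPKM and overlapped (limma adjusted p = 0.183). HSPB11, the intraflagellar transport protein IFT25, was at 2.73, 5.37 and 4.84 FPKM in control and 3.58, 3.21 and 3.28 FPKM in TAZ libraries (adjusted p = 0.246). Its first control was far below the others, and without it HSPB11 was called lower (log2 fold change -0.49, adjusted p = 0.0049). HSPB2 was below the filter at 0.394 ± 0.0568 against 0.345 ± 0.0656 FPKM, and HSPB3 was at 0 but for 0.5 fragments in 1 TAZ library, and 3 fragments is the limit that a count of 0 allows. CRYAB, alpha-B-crystallin, outside the symbol rule, was at 2.15 ± 0.449 against 2.59 ± 0.533 FPKM (adjusted p = 0.294).

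**Figure D3:**
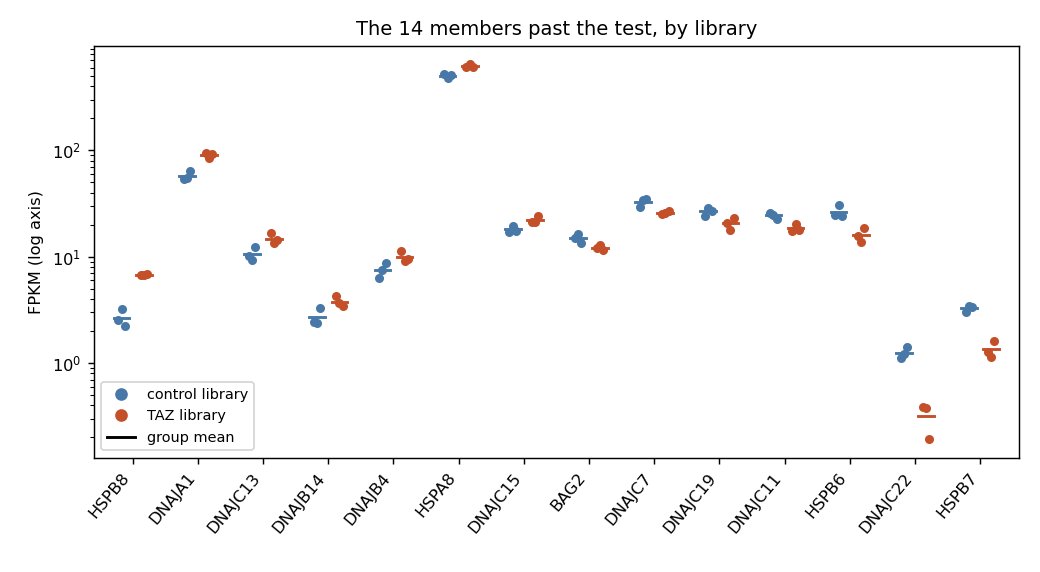
FPKM on a log axis of the 14 members that passed the test, with single libraries as points and group means as lines. For each gene the control and TAZ points do not overlap, from HSPB8 at one end to HSPB7 at the other.

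DNAJA1, a farnesylated class A J-protein that serves HSPA8, rose. Control libraries were at 53.3, 54.6 and 63.6 FPKM and TAZ libraries at 95.2, 84.1 and 91.6 FPKM, well separated (log2 fold change 0.65, SE 0.0916, adjusted p by limma = 1e-04). It supplied 48.5% ± 2.58 of the DNAJA sum in control and 61.4% ± 2.05 in TAZ libraries. Its paralog DNAJA2 was level at 31.7 ± 1.59 against 31.3 ± 1.13 FPKM (log2 fold change -0.02, 95% interval -0.20 to 0.16). DNAJA3, the mitochondrial class A member, was at 24.9 ± 1.40 against 22.3 ± 1.49 FPKM (adjusted p = 0.21). DNAJA4 was at 3.90 ± 0.111 against 3.14 ± 0.1997 FPKM without overlap, just short of the threshold (adjusted p = 0.0564), and 3 alternatives called it lower.

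In class B, DNAJB4, a cytosolic partner of HSP70, went from 6.36, 7.55 and 8.79 to 11.4, 9.07 and 9.59 FPKM (log2 fold change 0.37, SE 0.1202, adjusted p by limma = 0.0288). DNAJB14, anchored in the endoplasmic reticulum membrane, went from 2.46, 2.40 and 3.28 to 4.27, 3.65 and 3.41 FPKM (log2 fold change 0.37, SE 0.116, adjusted p = 0.024). Both rose, with control library 3 just under the lowest TAZ library. Both calls ended when control replicate 1, control replicate 2 or TAZ replicate 1 was left out, or no filter was set, with adjusted p up to 0.123 for DNAJB4 and 0.093 for DNAJB14.

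DNAJB1, or HSP40, a sensitive HSF1 target, was the most abundant class B gene. It was at 26.3, 25.4 and 24.8 FPKM in control and 26.3, 30.5 and 28.6 FPKM in TAZ libraries, of which the first lay inside the control range (log2 fold change 0.15, 95% interval -0.04 to 0.34, limma adjusted p = 0.191). DNAJB6, a suppressor of aggregation, was at 11.3 ± 0.367 against 9.46 ± 0.298 FPKM without overlap, its adjusted p of 0.0501 at the threshold, and 8 alternatives called it lower. DNAJB12, the paralog of DNAJB14, was at 15.7 ± 0.4805 against 14.9 ± 0.547 FPKM and DNAJB2, a neuronal co-chaperone, at 9.33 ± 0.237 against 9.40 ± 0.2796 FPKM. Below the filter lay DNAJB5, at 0.9796 ± 0.111 against 0.8805 ± 0.153 FPKM, and DNAJB13, with 1 fragment in all.

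Class C members share little beyond the J domain, and of 20 tested 2 rose and 4 fell (30.0% changed, against 37.9% of all genes). DNAJC13, or RME-8, an endosomal sorting factor, went from 10.1, 9.38 and 12.3 to 16.5, 13.6 and 14.3 FPKM (log2 fold change 0.45, SE 0.112, adjusted p by limma = 0.00667). DNAJC7, which binds both HSP70 and HSP90, went from 29.1, 33.8 and 34.5 to 25.2, 25.6 and 27.0 FPKM (log2 fold change -0.31, SE 0.0904, adjusted p = 0.0161). DNAJC13 was higher and DNAJC7 lower in every TAZ library, and leaving out TAZ replicate 1 or control replicate 2 ended the DNAJC7 call (adjusted p up to 0.0586).

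The paralogs DNAJC15 and DNAJC19, both of the inner mitochondrial membrane, moved in opposite directions. DNAJC15, or MCJ, a brake on respiratory complex I, rose from 17.2, 19.5 and 17.5 to 21.0, 21.4 and 24.1 FPKM (log2 fold change 0.28, SE 0.0921, adjusted p by limma = 0.0294). DNAJC19, of the protein import machinery, fell from 24.1, 28.8 and 27.2 to 20.8, 17.8 and 23.0 FPKM (log2 fold change -0.36, SE 0.106, adjusted p = 0.0159). DNAJC19 was the higher of the pair in each control library and DNAJC15 in each TAZ library, narrowly so in the first. The DNAJC15 call ended with the replicate block, or when TAZ replicate 3, control replicate 1 or control replicate 3 was left out (adjusted p up to 0.148). That of DNAJC19 ended when TAZ replicate 2 or control replicate 2 was left out, or no filter was set (adjusted p up to 0.0755). A difference between the paralogs' changes was not tested.

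DNAJC11, an associate of the cristae-organising complex of mitochondria, fell from 25.8, 24.6 and 22.8 to 17.4, 20.4 and 17.8 FPKM (log2 fold change -0.38, SE 0.0932, adjusted p by limma = 0.00631). DNAJC22, a membrane J-protein, fell from 1.11, 1.21 and 1.43 to 0.385, 0.379 and 0.194 FPKM, that is from 108.5 to 29 fragments. Its ratio of means was 0.255, and its log2 fold change was -0.77 (SE 0.102, adjusted p = 6.19e-05) and reached -1.97 when voom was run on the recovered fragments. DNAJC22 passed the filter through the control libraries alone, so it had to differ.

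The most abundant class C gene, the spliceosome-associated DNAJC8, was at 51.3 ± 1.71 against 46.3 ± 3.04 FPKM without overlap (limma adjusted p = 0.185), and DNAJC21, of ribosome assembly, at 28.0 ± 0.674 against 27.7 ± 1.31 FPKM. Near the threshold, and chosen after their values were seen, DNAJC5, the cysteine string protein of secretory vesicles, was at 22.1 ± 2.55 against 18.2 ± 0.856 FPKM (adjusted p = 0.0565) and DNAJC24, of diphthamide synthesis, at 11.7 ± 0.8498 against 9.70 ± 0.565 FPKM (adjusted p = 0.0552). Without control replicate 2 both were called lower (adjusted p = 0.018 and 0.045). Below the filter, the auxilin DNAJC6 had 12.5 fragments in control and 2.5 in TAZ libraries, DNAJC12 was at 0.164 ± 0.0445 against 0.148 ± 0.0455 FPKM and DNAJC28 at 0.439 ± 0.118 against 0.531 ± 0.145 FPKM.

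Of the BAG genes only BAG2, an inhibitor of the ubiquitin ligase STUB1, passed the test. It fell from 14.9, 16.4 and 13.4 to 12.0, 12.8 and 11.5 FPKM (log2 fold change -0.27, SE 0.0976, adjusted p by limma = 0.0409). Of 15 alternatives 9 ended this call, among them median-ratio scaling, the replicate block and leaving out control replicate 1, control replicate 2 or any TAZ library (adjusted p up to 0.168).

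BAG3, an HSF1 target and the partner of HSPB8, was at 25.7, 25.4 and 24.5 FPKM in control and 23.6, 27.1 and 25.8 FPKM in TAZ libraries. The TAZ values enclosed the control range (log2 fold change 0.01, 95% interval -0.17 to 0.20, limma adjusted p = 0.927). BAG6, which guards new membrane proteins, was at 83.7 ± 4.87 against 83.1 ± 4.13 FPKM, BAG1 at 37.7 ± 2.23 against 39.1 ± 2.07 FPKM, BAG5 at 9.66 ± 1.69 against 10.3 ± 0.514 FPKM and BAG4, which binds the TNF receptor, at 3.96 ± 0.551 against 3.71 ± 0.202 FPKM. RefSeq models of BAG1, BAG4, BAG5 and BAG6 are among the 14 members that overlap another gene, and the sources used here do not state the strand setting.

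**Figure D4:**
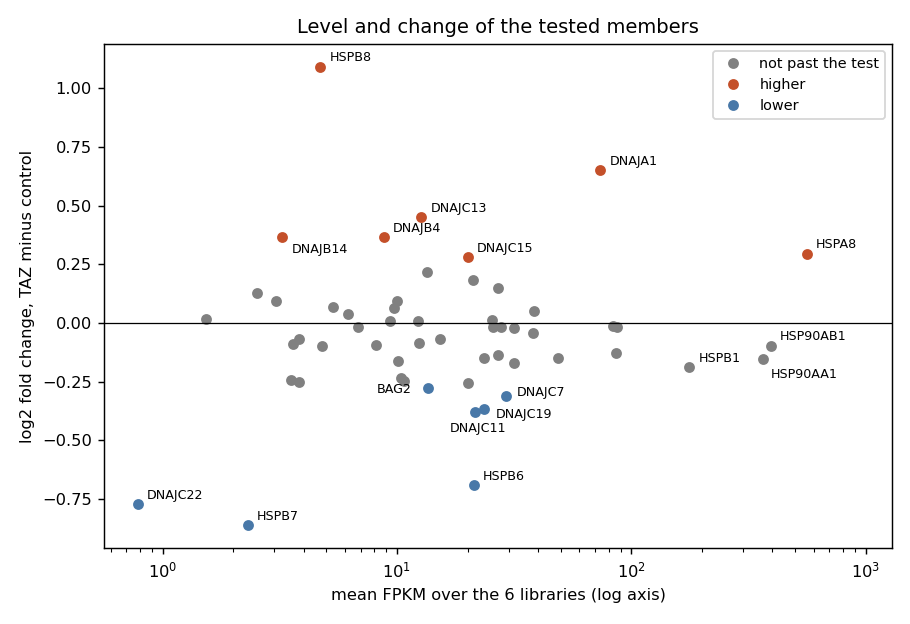
Mean FPKM on a log axis against log2 fold change of the 55 tested members, with called and abundant members named. Of the 4 most abundant members HSPA8 passed the test, and HSP90AA1, HSP90AB1 and HSPB1 did not.

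Other genes of the chaperone network were counted from lists. Of 28 tested heat-inducible HSF1 targets 6 rose and 2 fell (28.6% changed, against 37.9% of all genes, of which 15.7% rose and 22.1% fell), or 6 and 1 under median-ratio scaling. The median of the list was -0.001 on the log2 scale. HSPB8, DNAJA1, HSPA8 and DNAJB4 are the members among those that rose, and of the 14 listed genes outside the members 2 rose and 2 fell. The list holds HSPA1A, HSPA1B and HSPA1L, symbols that are not among those deposited. HSP70.1 and LOC102177850 are therefore not counted in it, and neither passed the test (limma adjusted p = 0.132 and 0.254). HSPB8, IER5 and DNAJA1 had the lowest adjusted p. IER5, a feedback regulator of HSF1, rose from 92.1 ± 12.6 to 160.1 ± 13.0 FPKM (log2 fold change 0.80, limma adjusted p = 5.94e-05), and MRPL18, a mitochondrial ribosomal protein gene, fell from 34.6 ± 0.232 to 23.6 ± 1.40 FPKM (log2 fold change -0.54, adjusted p = 0.000233).

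Of 32 HSP90 co-chaperones and HSP70 regulators 5 rose and 7 fell (37.5% changed, against 37.9% of all genes, median -0.052), and 5 rose and 4 fell under median-ratio scaling. FKBP5, a steroid receptor immunophilin, rose from 12.0 ± 0.963 to 20.4 ± 1.67 FPKM (log2 fold change 0.72, limma adjusted p = 6.78e-05), and PIH1D1, of the R2TP complex, from 24.7 ± 2.18 to 38.9 ± 3.28 FPKM. SGTA, which works with BAG6 on membrane proteins, fell from 57.9 ± 3.83 to 44.8 ± 4.38 FPKM.

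In a list of 21 genes of the cytosolic chaperonin TRiC, prefoldin, the tubulin cofactors and related partners 0 rose and 5 fell (23.8% lower, near the 22.1% of all genes, median -0.127), and under median-ratio scaling 1 rose and 1 fell. The tubulin cofactor TBCB fell from 138 ± 12.9 to 97.4 ± 9.79 FPKM (log2 fold change -0.50, limma adjusted p = 0.00147), followed by TBCD and PFDN5, while URI1 was at 7.91 ± 0.631 against 9.49 ± 0.641 FPKM (adjusted p = 0.0719). Of 17 mitochondrial chaperones and proteases 0 rose and 3 fell (17.6% lower, against 22.1% of all genes, median -0.088), or 1 fell under median-ratio scaling. These were PMPCA, a presequence peptidase subunit, from 48.3 ± 3.03 to 34.6 ± 2.06 FPKM, and the proteases HTRA2 and SPG7, while YME1L1 was at 31.6 ± 3.61 against 36.2 ± 2.35 FPKM (adjusted p = 0.135).

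Of the 7 chaperones of the endoplasmic reticulum that the rule left out, 2 rose and 2 fell (57.1% changed, against 37.9% of all genes, median 0.016), and 3 rose and 1 fell under median-ratio scaling (median 0.071). DNAJC10, a disulfide reductase, fell from 32.0 ± 3.56 to 19.9 ± 1.87 FPKM (log2 fold change -0.66, limma adjusted p = 0.000241), and HSPA5, or BiP, from 459 ± 24.8 to 385 ± 16.1 FPKM. DNAJC3 rose from 19.6 ± 1.98 to 25.01 ± 0.858 FPKM and DNAJB9, chosen after its values were seen, from 5.87 ± 0.798 to 7.48 ± 0.451 FPKM.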

How the data were processed

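The authors deposited FPKM values, 1 table per group, and the submitters' processing notes name fastp, HISAT2 and HTSeq. The sources used here give no versions, genome build, annotation or strand setting, and coordinates are left out. The 23 rows holding a date were dropped. All 16262 symbols matched RefSeq (assembly ARS1.2), used for names and overlaps. Members and lists were chosen with earlier results of these data known.

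The 3 control and 3 TAZ libraries, grouped by title, were compared on log2(FPKM + 1) with limma 3.58.1 in R 4.3.3 (empirical Bayes with trend, two-sided, Benjamini-Hochberg over all 10750 genes that reached 1 FPKM in 3 libraries). The same fit was run on simulated data with independent noise in each library, and no result here rests on that run. FPKM steps gave library totals and fragment numbers, in steps of 0.5 within 0.02 fragments, for 99.99% of rows above 0. Floors cover counting error only. All members but the DNAJC genes are named; of these the 6 lowest in adjusted p, the 3 most abundant and those changed 1.5-fold are. Lists give the 3 genes lowest in adjusted p and the leader of the rarer direction. LOC102177850 and CRYAB were added for overlap and family. Alternatives were pseudocounts, filters, scalings, variance models, voom on fragments, a replicate block and leaving out each library.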

Additional observations from a re-analysis of the deposited data

How the results depend on the processing

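In place of 7 members higher and 7 lower, leaving out each library in turn gave 4 to 7 higher (4 without control replicate 1) and 5 to 8 lower. Other settings gave 5 to 7 higher and 6 to 10 lower. The stricter filter tested fewer members, and with no filter all 66 were tested, so those counts have other totals. The counts of all genes called moved as well. Leaving out control replicate 3 raised both the higher and the lower count of all genes. Leaving out any other library lowered both. Of 14 calls 7 held in every alternative that tested them (HSPB8, HSPB7, HSPB6, DNAJA1, DNAJC11, DNAJC13 and DNAJC22, the last of which passed the filter through the control libraries alone), 7 were lost in at least 1, and 6 other members were called in at least 1. No called member changed sign. Median-ratio scaling moved the share of higher genes among all called genes from 41.6% to 52.6% and the median log2 fold change of all genes by 0.048. The replicate block gave 5 members higher and 6 lower, and it lowered both counts of all genes too. The replicate numbers do not pair the libraries: deviations of same-numbered libraries from the group means correlated at -0.436, -0.112 and -0.403. Across different numbers some correlated at 0.691 (control 3 with TAZ 1), 0.534 (control 1 with TAZ 2) and 0.552 (control 2 with TAZ 3). Others correlated at -0.35 (control 2 with TAZ 1), -0.376 (control 3 with TAZ 2) and -0.086 (control 1 with TAZ 3). Deviations within a group cancel out, so both signs must occur. The labels name nothing that the positively correlated libraries share. Few fragments limit low genes such as HSPA6, DNAJC6, DNAJC12 and DNAJC22.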
